A study of Mus musculus with 48 samples.

Results

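The genes described here encode the proteins of the blood's clotting cascade, its inhibitors, the fibrinolytic system and complement, which liver makes and releases into plasma. The list held 39 genes, chosen by gene symbol and function, and 36 of them could be read through a probe set that named the gene alone, out of 18194 such genes on the array. C3 and Cpb2 were named by no probe set in the annotation used and C4b shared its probe set with C4a, so these 3 were not analysed here. Where a gene had several probe sets, the one of highest mean was used.

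The samples were 48 liver pools, 1 for each hour from CT18 to CT65, where CT is circadian time, CT0 is subjective dawn and CT12 is subjective dusk. Each pool combined RNA of several male C57BL/6J mice, 6 weeks old, that had been entrained to a cycle of light and dark and were then kept in constant darkness, and it was read on a single Affymetrix mouse array. There were no treatment groups and no replicate within an hour, and pools of different hours are different animals. Every error below thus comes from the scatter of pools around a fitted model. For amplitudes, peaks and ratios it was a curve. For contrasts of day with night and between cycles it was a set of means, and rhythm within day or night widens the day and night error. All 48 pools were used unless fewer are named. CT18 to CT41 were the first cycle and CT42 to CT65 the second.

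Clotting runs as a cascade of plasma proteases. Tissue factor with factor VII, or the contact system of factor XII, prekallikrein and kininogen with factor XI, leads to factor X, then to thrombin, which cuts fibrinogen into fibrin. Antithrombin, heparin cofactor II and the protein C system with protein S restrain it, while plasmin, cut from plasminogen and held in check by alpha-2-antiplasmin, dissolves the clot. Complement is a parallel cascade in which the lectin, classical and alternative pathways converge on a membrane attack complex that pierces the target cell. Hepatocytes make most of these proteins, and both systems hold acute phase proteins whose genes respond to inflammation.

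Of the 48 pools, CT60 to CT65 stood apart. Their median correlation with the other arrays averaged 0.989, against 0.994 for CT36 to CT41, which match them in hour of the day, and was lowest at CT61, at 0.984. These hours lie in subjective night, so they weigh on every comparison of day with night, and results that rest on them are given with and without them. The sum of hepatocyte markers varied little: the summed intensity of 4 of the 5 listed, Alb, Apoa1, Ttr and Ahsg, ranged from 2534350 to 2758740 over the pools and from 2602220 to 2731070 in CT60 to CT65. Endothelial, Kupffer and stellate markers were present at lower sums, and 4 of 6, 2 of 6 and 2 of 6 of them had a 24 h period by both rhythm tests described next. Of the 4 hepatocyte markers 0 had a 24 h and 1 an 8 h period by those tests, and 1 was called higher in subjective day. Markers of lymphocytes and of platelets were dim, with means under 200 for 5 of 5 and 4 of 5. A change in the share of a cell type and a change of RNA per cell cannot be told apart in such pools.

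Rhythms were called by Fisher's G-test together with a cosine fit, at a q-value under 0.05 in both, and were put in a class by the fitted period length, over 20 and under 30 h for the 24 h class. By this rule 6 of the 36 genes, or 16.7%, had a 24 h rhythm: the fibrinogen chains Fga, Fgb and Fgg, the contact protease genes Klkb1 and F11, and Serpinf2, which encodes alpha-2-antiplasmin. All 6 belonged to clotting and fibrinolysis, 6 of 20 genes measured, and 0 of the 16 complement genes passed. The same call was made for 9.97% of all probe sets and for 32.6% of the 3511 probe sets at least as bright as the dimmest member, so the share of these genes lay between the background of the array and that of bright probe sets. Antithrombin, Serpinc1, passed both tests with a fitted period length of 30 h, at the edge of the search, and so fell in no class. None of the 36 had a 12 h rhythm, against 0.769% of all probe sets, and none an 8 h rhythm, against 0.266%, and the counts were 0 and 0 also at unadjusted p-values under 0.05 in both tests. At that unadjusted level 1 complement gene, Masp2, had a 24 h rhythm by both tests. The split depended on the probe sets adjusted over: among the 18582 brightest probe sets alone, 34.5% were called, and with them 10 of the 20 clotting and fibrinolysis genes and 5 of the 16 complement genes, Masp1, Masp2, Cfi, C4bp and Vtn. Of these 5 only Masp2 had unadjusted p-values under 0.05 in both tests. The calls of Masp1, Cfi, C4bp and Vtn thus rest on a q-value that lay below its p-value in at least 1 test.

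All 3 fibrinogen chains cycled, with small amplitudes. Fibrinogen is a hexamer of paired Aα, Bβ and γ chains, and their genes lie side by side on chromosome 3. Fga was lowest at CT62, with an intensity of 331284, had a median of 448830 and was highest at CT30, at 504763. Fgb ranged from 463527 at CT39 through a median of 575241 to 665796 at CT54. Fgg ranged from 419775 at CT39 through a median of 496241 to 540439 at CT54. Highest over lowest pool was thus 1.52-fold, 1.44-fold and 1.29-fold. The pools of subjective day and night overlapped for each chain, with medians of 473873 by day and 421706 by night for Fga.

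The fitted 24 h amplitude, which is the rise from the mean to the peak on the log2 scale, was 0.15 ± 0.015 (SE) for Fga, 0.12 ± 0.012 for Fgb and 0.11 ± 0.011 for Fgg, with n = 48 pools. Peaks fell shortly after subjective dawn, at CT 2.84 ± 0.39 h, 2.84 ± 0.40 h and 1.82 ± 0.38 h. From peak to trough the fitted curves spanned 1.23-fold, 1.18-fold and 1.16-fold. Adjusted p-values of the 24 h component by limma were 6.89e-10, 1.17e-09 and 1.41e-09, and G-test q-values were 5.38e-08, 2.34e-07 and 6.09e-07. Without CT60 to CT65 the amplitudes were 0.14, 0.13 and 0.12, and each cycle alone gave a peak between CT 1.79 and CT 3.22 for each chain.

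**Figure D1:**
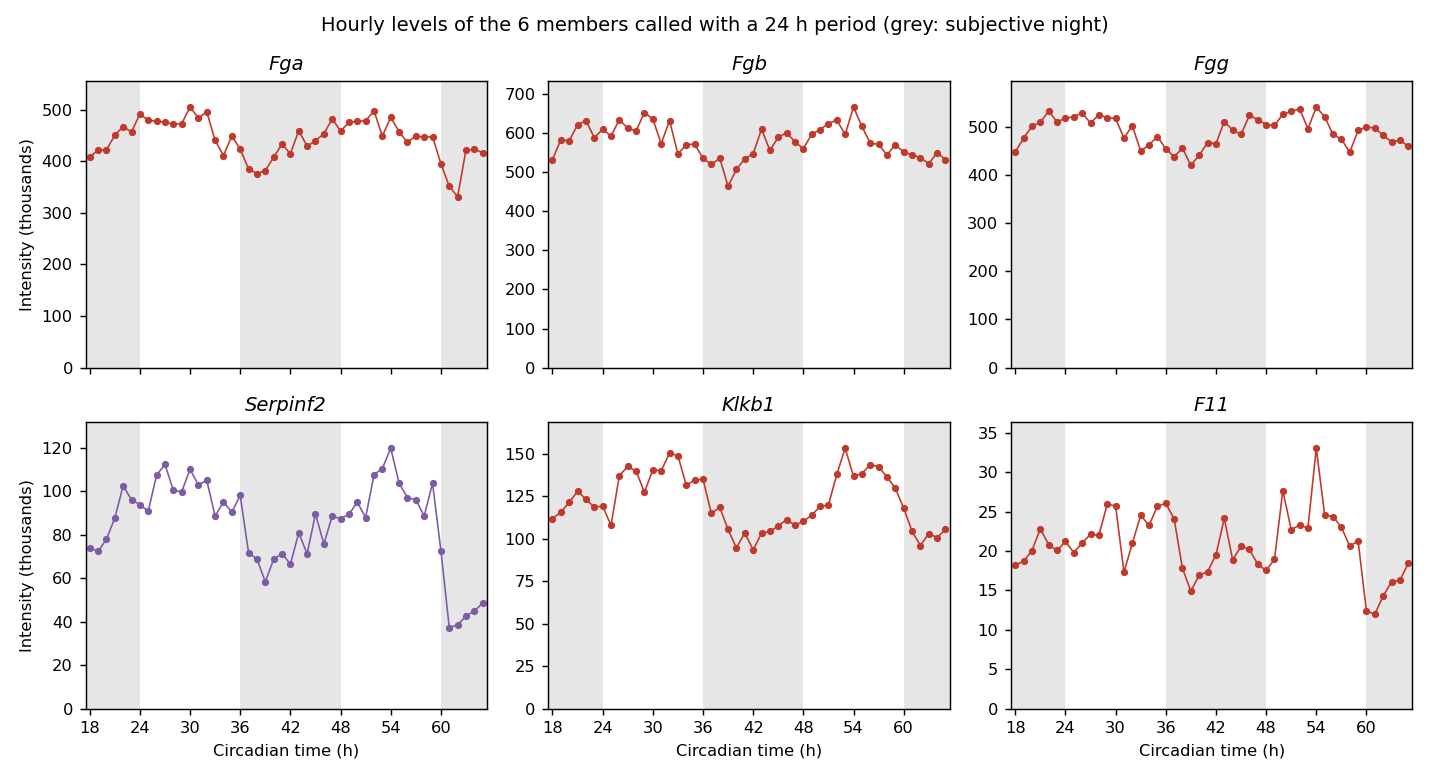
Intensity divided by 1000 (y axis, from 0) against circadian time in hours (x axis) for the 6 genes with a 24 h rhythm by both tests, each point 1 pool and grey bands subjective night. The fibrinogen chains differ by at most 1.52-fold between lowest and highest pool, while Serpinf2 falls to 37374 at CT61, its lowest pool, and Klkb1 has its highest pool at CT53.

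The chains did not move in exact proportion. The log2 ratio of Fgb to Fgg ran from 0.13 at CT61 through a median of 0.24 to 0.33 at CT32, a narrow band, yet it held a 24 h component of amplitude 0.03 ± 0.0074 with adjusted p = 0.00254 by limma. Fga to Fgg gave 0.05 ± 0.016 and adjusted p = 0.0221, and Fga to Fgb 0.03 ± 0.016 and adjusted p = 0.304, which misses the threshold. Fgb over Fgg was greatest at CT 6.86 ± 0.92 h and Fga over Fgg at CT 5.04 ± 1.26 h. The largest of these ratio rhythms spans 1.08-fold from peak to trough.

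The region just before the start of each fibrinogen gene is shown here because the chains moved together, with the next 3 genes of the 24 h class for comparison. Each run is the 250 bases before the RefSeq start in build GRCm38.p6, written 5′ to 3′ on the gene's own strand, and capitals mark matches on either strand to 6 short motifs: GTTAAT (a core of sites for HNF1, a hepatocyte factor), TTNNGCAA (a C/EBP core), CTGGGA (an interleukin-6 element known from fibrinogen genes), AGGTCA (a nuclear receptor core), TTANNTAA (a D-box core, bound by DBP and its kin) and CACGTG (the E-box of the clock).
Fga, chr3:83025903-83026152, plus strand: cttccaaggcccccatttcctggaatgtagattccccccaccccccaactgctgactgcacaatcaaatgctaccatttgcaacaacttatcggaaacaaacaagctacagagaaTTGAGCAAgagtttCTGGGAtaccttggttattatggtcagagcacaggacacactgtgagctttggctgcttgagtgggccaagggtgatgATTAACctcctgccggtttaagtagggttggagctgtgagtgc
Fgb, chr3:83049864-83050113, minus strand: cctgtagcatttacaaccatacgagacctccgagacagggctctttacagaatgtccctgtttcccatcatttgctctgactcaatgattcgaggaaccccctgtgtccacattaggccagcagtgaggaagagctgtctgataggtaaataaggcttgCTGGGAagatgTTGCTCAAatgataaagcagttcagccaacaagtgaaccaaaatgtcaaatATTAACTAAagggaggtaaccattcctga
Fgg, chr3:83007474-83007723, plus strand: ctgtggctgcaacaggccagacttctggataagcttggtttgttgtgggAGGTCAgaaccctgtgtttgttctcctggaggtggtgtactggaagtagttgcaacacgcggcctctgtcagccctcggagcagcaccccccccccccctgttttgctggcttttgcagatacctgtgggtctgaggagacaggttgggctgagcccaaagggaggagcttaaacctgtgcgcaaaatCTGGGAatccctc
Serpinf2, chr11:75439502-75439751, minus strand: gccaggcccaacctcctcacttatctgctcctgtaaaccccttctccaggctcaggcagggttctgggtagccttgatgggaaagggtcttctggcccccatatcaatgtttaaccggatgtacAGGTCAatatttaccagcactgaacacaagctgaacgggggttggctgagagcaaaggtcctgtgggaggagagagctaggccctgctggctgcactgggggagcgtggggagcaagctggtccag
Klkb1, chr8:45294836-45295085, minus strand: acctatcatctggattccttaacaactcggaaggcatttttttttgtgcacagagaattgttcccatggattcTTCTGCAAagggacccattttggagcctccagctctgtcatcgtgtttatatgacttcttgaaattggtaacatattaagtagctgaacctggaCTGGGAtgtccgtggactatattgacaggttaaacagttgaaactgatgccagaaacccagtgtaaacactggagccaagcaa
F11, chr8:45262032-45262281, minus strand: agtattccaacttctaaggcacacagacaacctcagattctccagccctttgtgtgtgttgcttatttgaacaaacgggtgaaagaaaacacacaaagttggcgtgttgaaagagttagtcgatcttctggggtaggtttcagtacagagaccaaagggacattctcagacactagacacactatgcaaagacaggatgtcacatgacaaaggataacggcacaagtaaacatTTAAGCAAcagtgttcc

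CTGGGA stood in the window of all the fibrinogen chains, starting 121 bases before the start in Fga, 91 in Fgb and 13 in Fgg, and also in Klkb1. A match of these letters is common, in 27% of all 32851 promoter windows. GTTAAT was in Fga and Fgb but not in Fgg, and in 6.43% of all windows, and TTNNGCAA was in Fga, Fgb, Klkb1 and F11, and in 9.56%. In Fgb the GTTAAT match overlapped the only D-box match of the 6 windows. AGGTCA was in Fgg and Serpinf2 and in 14% of all windows, and CACGTG was in none of the 6 and in 6.02% of all. Over the 30 listed genes with a window in the table, GTTAAT was present in 8, TTNNGCAA in 8, CTGGGA in 12, AGGTCA in 10, TTANNTAA in 6, which 5.43% of all windows hold, and CACGTG in 0.

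Serpinf2 had the largest 24 h amplitude of the 36. Its product, alpha-2-antiplasmin, is the main inhibitor of plasmin. Intensity was lowest at CT61, at 37374, had a median of 89074 and was highest at CT54, at 119898, a span of 3.21-fold. Pools of subjective day lay between 87464 and 119898 and those of night between 37374 and 102591, so the ranges overlapped, with medians of 98452 and 72056. The amplitude was 0.42 ± 0.041, which is 1.79-fold from peak to trough, with a peak at CT 4.52 ± 0.41 h and adjusted p = 4.31e-10 by limma. It was the only gene of the set whose fitted curve spanned over 1.5-fold, and without CT60 to CT65 its amplitude was 0.32 with adjusted p = 1.96e-10.

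Plg encodes plasminogen, the zymogen that alpha-2-antiplasmin's target is cut from. It ranged from 127023 at CT61 through a median of 239642 to 285053 at CT27, with a 24 h amplitude of 0.15 ± 0.031 and a peak at CT 4.96 ± 0.85 h, close to that of Serpinf2, with adjusted p = 0.000822 by limma. Without CT60 to CT65 the amplitude fell to 0.08, with a peak at CT 6.04 and adjusted p = 0.00902. It missed the G-test, with q = 0.0726. The inhibitor moved more than the zymogen: the log2 ratio of Plg to Serpinf2 was lowest at CT54, at 1.12, had a median of 1.40 and was highest at CT62, at 2.08. This ratio had a 24 h amplitude of 0.27 ± 0.019 and a peak in subjective night, at CT 16.27 ± 0.29 h, with adjusted p = 2.84e-14 by limma, and 1.28e-12 without CT60 to CT65. Hrg, which encodes histidine-rich glycoprotein, a plasminogen-binding protein, had an amplitude of 0.09 ± 0.053 that did not pass, with adjusted p = 0.367.

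Klkb1 and F11 are neighboring genes on chromosome 8 that arose from a common ancestor and encode prekallikrein and factor XI, which both circulate bound to kininogen. Klkb1 ranged from 93455 at CT42 through a median of 119209 to 153334 at CT53. Its medians were 137027 by day and 107705 by night. Its amplitude of 0.23 ± 0.018 and peak at CT 6.68 ± 0.31 h had the smallest adjusted p of the 36 genes, 3.46e-13 by limma, and it kept an adjusted p of 5.6e-12 without CT60 to CT65. F11 ranged from 12007 at CT61 through a median of 20712 to 33037 at CT54, with an amplitude of 0.22 ± 0.046, a peak at CT 4.92 ± 0.85 h and adjusted p = 0.000817. Their ratio had no 24 h component past the threshold, with an amplitude of 0.10 ± 0.051 and adjusted p = 0.197 by limma, so a difference in timing between the neighbors was not detectable in these pools. Without CT60 to CT65 F11 was no longer called by both tests, but the G-test then had no frequency at 24 h. Its limma component remained, with adjusted p = 0.00111.

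Kng1, the kininogen that carries both proteases, peaked at CT 7.31 ± 0.94 h with an amplitude of 0.07 ± 0.017 and adjusted p = 0.00343 by limma. A second, dimmer probe set of Kng1 peaked at CT 15.72 ± 1.33 h, so the timing of Kng1 depends on the probe set read. Mouse carries a close paralogue, Kng2, and whether either probe set also reads it was not tested. F12, the start of the contact system, had an amplitude of 0.13 ± 0.047 and adjusted p = 0.0501, just outside the threshold, and passed when any of 13 single pools was left out. In CT60 to CT65 it lay between 26540 and 38259, entirely below its 48693 to 63880 at CT36 to CT41.

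F5, the cofactor that speeds up thrombin formation, ranged from 20708 at CT61 through a median of 56962 to 75943 at CT59, the widest span of the set at 3.67-fold. Its amplitude was 0.24 ± 0.058 with a peak at CT 5.83 ± 1.02 h and adjusted p = 0.00548 by limma, and its other probe set gave 0.23 ± 0.053 at CT 6.27 ± 0.96 h. Without CT60 to CT65 the amplitude of F5 fell to 0.14, with a peak at CT 8.24 and adjusted p = 0.0122. F2, the prothrombin gene, had an amplitude of 0.13 ± 0.033 and a peak at CT 4.40 ± 1.03 h, with adjusted p = 0.00647. That of F2 was lost without CT60 to CT65, at adjusted p = 0.176. The vitamin K-dependent protease gene F9 ran the other way, with a night peak at CT 18.79 ± 0.88 h, an amplitude of 0.10 ± 0.021 and adjusted p = 0.00143. F13b, the carrier subunit of the enzyme that cross-links fibrin, also peaked at night, at CT 14.69 ± 1.16 h with adjusted p = 0.0219, and lost this without CT52, at 0.0513, and without CT60 to CT65, at 0.509. Neither F7 nor F10, neighboring genes on the tissue factor route to thrombin, had a 24 h component past the threshold in the probe set read, with adjusted p = 0.981 and 0.059. The call of F10 depends on the probe set: its 2 dimmer ones passed, with adjusted p = 0.0025 and 0.00525 by limma, and peaked at CT 8.92 and CT 6.41 against CT 0.14 for the one read here.

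Among the inhibitors of clotting, Proc, which encodes protein C, had an amplitude of 0.07 ± 0.019 and a peak at CT 7.32 ± 1.09 h, with adjusted p = 0.0117 by limma and 0.0589 without CT60 to CT65. Its cofactor Pros1, protein S, peaked at CT 8.93 ± 1.22 h with an amplitude of 0.11 ± 0.037 and adjusted p = 0.0338, which rose to at most 0.0621, without CT32, when single pools were left out. Serpinc1 had an amplitude of only 0.05 ± 0.013, at CT 0.92 ± 0.90 h with adjusted p = 0.00664, and an intensity between 236416 at CT63 and 305783 at CT18, with a median of 285887. Serpind1, heparin cofactor II, did not pass, at adjusted p = 0.0664. The ratio of F2 to its inhibitor Serpinc1 did have a 24 h component, of amplitude 0.11 ± 0.025 with a peak at CT 5.88 ± 0.98 h and adjusted p = 0.00403, and 0.011 without CT60 to CT65. The ratio of Proc to Pros1 had none past the threshold, at adjusted p = 0.362.

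**Figure D2:**
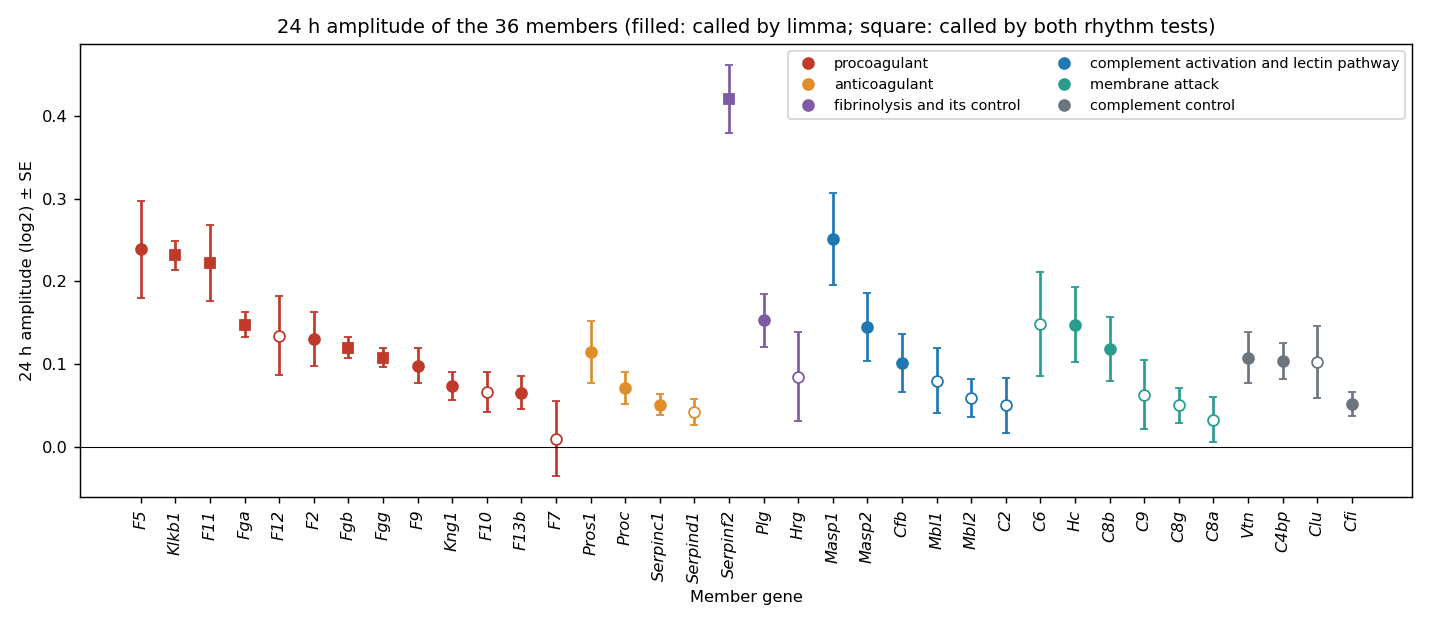
Fitted 24 h amplitude on the log2 scale with its SE (y axis) for each of the 36 genes (x axis), grouped and colored by role, filled where limma called the component and square where both rhythm tests called a 24 h period. Serpinf2 at 0.42 stands above the rest, and the square symbols, from the adjustment over all probe sets, are all in the clotting and fibrinolysis groups.

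Complement genes had 24 h amplitudes of like size, although none passed both rhythm tests when adjusted over all probe sets. The median amplitude was 0.10 over the 16 complement genes and 0.11 over the 20 genes of clotting and fibrinolysis, against 0.12 for bright probe sets and 0.05 for all. By limma 8 of the 16 and 15 of the 20 had a 24 h component, 23 of 36 together or 63.9%, against 47.4% of all probe sets and 69.4% of the bright ones, so this share too was no higher than among probe sets of like brightness. For a 12 h component 3 of 36 passed, F10, Klkb1 and Serpinf2, against 4.89% and 17.6%, and the count was 0 when CT25, CT50 or CT60 was left out. For an 8 h component 0 of 36 passed by limma, against 1.35% of all probe sets. At an unadjusted p under 0.05 there were 12, a level at which the share of all probe sets is not given here. Whether 12 exceeds that share thus cannot be said.

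The lectin pathway proteases differed from each other in timing. Masp1 and Masp2 encode serine proteases that ride on mannose-binding lectin. Masp1 ranged from 12723 at CT61 through a median of 33479 to 43619 at CT33, with an amplitude of 0.25 ± 0.055, a peak in subjective day at CT 7.51 ± 0.88 h and adjusted p = 0.00177 by limma. Masp2 peaked in subjective night, at CT 20.28 ± 1.08 h, with an amplitude of 0.15 ± 0.041 and adjusted p = 0.0141. Their log2 ratio ran from -0.14 at CT61 through a median of 0.79 to 1.67 at CT60, and its 24 h component of amplitude 0.39 ± 0.065, the largest of the 14 ratios tested, had adjusted p = 2.95e-05, and 3.76e-05 without CT60 to CT65. Probe sets of these genes disagreed: a second probe set of Masp2 peaked at CT 5.28 ± 1.22 h, while dimmer probe sets of Masp1 peaked at CT 4.24 ± 0.55 h and CT 4.02 ± 0.60 h and were called by both rhythm tests.

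The lectins that these proteases bind changed unequally. Mbl1 and Mbl2 had no 24 h component of their own past the threshold, with adjusted p = 0.196 and 0.0775 by limma. Their ratio had one, of amplitude 0.14 ± 0.035 with a peak at CT 1.36 ± 0.92 h and adjusted p = 0.00727, and 0.000125 without CT60 to CT65. Without those pools Mbl1 itself passed, with an amplitude of 0.16, a peak at CT 2.01 and adjusted p = 0.000241. Of the other activating components, Cfb, the protease subunit gene of the alternative pathway, peaked at CT 21.84 ± 1.25 h with adjusted p = 0.0466. That call was lost when any of 29 single pools was left out, with at most 0.0944. C2, the neighbor of Cfb and its counterpart in the classical and lectin pathways, gave adjusted p = 0.404 from a probe set whose suffix marks probes that may bind related transcripts.

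Genes of the membrane attack complex were uneven. Hc, which encodes complement C5, the component whose cleavage starts the complex, ranged from 93758 at CT61 through a median of 149561 to 210528 at CT22, with an amplitude of 0.15 ± 0.045, a peak at CT 2.43 ± 1.15 h and adjusted p = 0.022 by limma, lost without CT60 to CT65 at 0.0823. C6 had the same amplitude, 0.15 ± 0.063, with more scatter, a fitted peak at CT 23.54 ± 1.48 h and adjusted p = 0.12, or 0.0418 without CT36. It ranged between 17060 at CT61 and 49580 at CT22 with a median of 30573. C9, which forms the pore, gave 0.06 ± 0.041 and adjusted p = 0.393.

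C8 is built from an α, a β and a γ chain, and the genes C8a and C8b are neighbors while C8g lies elsewhere. C8a ranged from 140342 at CT18 through a median of 161452 to 197627 at CT63, with an amplitude of 0.03 ± 0.027 and adjusted p = 0.553 by limma. C8b ranged from 56881 at CT33 through a median of 71273 to 103791 at CT54, with an amplitude of 0.12 ± 0.038, a peak at CT 22.62 ± 1.14 h and adjusted p = 0.0333. C8g ranged from 148732 at CT33 through a median of 176638 to 222318 at CT61, with an amplitude of 0.05 ± 0.021 and adjusted p = 0.12. Of their ratios, C8a to C8b had a 24 h component, with adjusted p = 0.0266, which was lost without CT60 to CT65, at 0.0843, while C8a to C8g and C8b to C8g gave 0.117 and 0.0684. Unlike the fibrinogen chains, then, only C8b of these chains was called, and its call was lost without CT60 to CT65, with adjusted p = 0.122, and when any of 6 single pools was left out, with at most 0.0599.

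The inhibitors of complement were split. C4bp, which encodes the C4b-binding protein, peaked in subjective night, at CT 19.91 ± 0.82 h, with an amplitude of 0.10 ± 0.022 and adjusted p = 0.00104 by limma. The ratio of C4bp to Pros1 had a 24 h amplitude of 0.22 ± 0.045 with a peak at CT 20.44 ± 0.80 h, adjusted p = 0.000896, and 0.00094 without CT60 to CT65. Cfi, the protease factor I, had an amplitude of 0.05 ± 0.014 at CT 23.95 ± 0.96 h with adjusted p = 0.0127. Vtn, vitronectin, had 0.11 ± 0.031 at CT 2.46 ± 1.08 h with adjusted p = 0.0155, lost without CT60 to CT65 at 0.222. A dimmer probe set of Vtn peaked at CT 23.99 ± 1.01 h and passed with and without those pools, at adjusted p = 0.0174 and 0.0219 by limma. In it CT60 to CT65 overlapped with CT36 to CT41, and neither level nor rhythm differed between the cycles, at adjusted p = 0.57 and 0.17. The results for Vtn below thus hold for the probe set read. Clu, clusterin, did not pass, at 0.119, although 2 of its dimmer probe sets did.

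**Figure D3:**
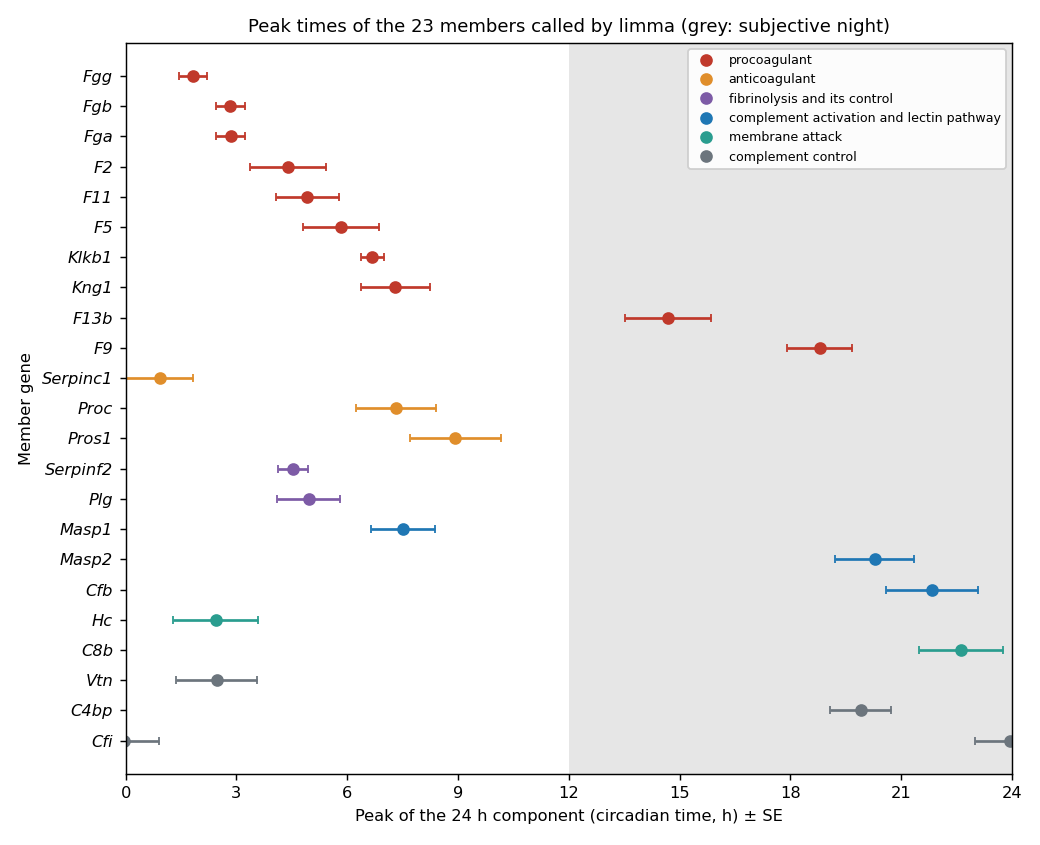
Peak time of the 24 h component in circadian hours with its SE (x axis, grey for subjective night) for the 23 genes called by limma (y axis), colored by role. Most clotting genes peak between CT 0.92 and CT 8.93, with F13b and F9 at night, while complement genes fall on both sides.

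Peaks of the called genes lay mostly in subjective day for clotting and fibrinolysis, 13 of 15, and less so for complement, 3 of 8. Over all called probe sets 30% peaked in subjective day, and over the bright ones 47.8%. Without CT60 to CT65, 13 clotting and fibrinolysis genes were called, and of these F7, F9 and Serpinc1 peaked at night. F7 lay at CT 14.97 and Serpinc1 at CT 23.19 in that fit. Of the 8 complement genes called then, C2, Cfb, Masp2 and C4bp peaked at night and the others by day. The difference between the groups was not tested. A plain contrast of the 24 pools of subjective day with the 24 of night called 12 genes higher by day, all of clotting and fibrinolysis except Masp1: F2, F5, F11, Fga, Fgb, Fgg, Klkb1, Kng1, Proc, Plg, Serpinf2 and Masp1. That is 33.3% of the set, against 9.14% of all probe sets and 20.6% of the bright ones. By day 3 genes were lower, F9, C8g and C4bp, against 26.3% of all and 24.5% of the bright. Serpinf2 was higher by 0.53 ± 0.084 on the log2 scale, with adjusted p = 1.9e-05 by limma, and F9 lower, at -0.16 ± 0.030 with adjusted p = 0.000287.

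This contrast rested in part on the last 6 pools. Without them 5 genes were higher by day, Fga, Fgb, Klkb1, Plg and Serpinf2, against 3.97% of all probe sets and 10.9% of the bright ones. Lower by day were 5, F7, F9, Cfb, Masp2 and C4bp, against 3.51% and 15.4%. Either way 5 genes are 13.9% of the set. The limma count of 24 h components changed less, from 23 to 21 of 36, against 21.9% of all probe sets and 62.2% of the bright ones in the same fit. It lost F2, F13b, Proc, Hc, C8b and Vtn, and F7, C2, Mbl1 and C9 came in. By both rhythm tests 8 genes had a 24 h period without those pools, Fga, Fgb, Fgg, Klkb1 and Serpinf2 as before, and F9, Kng1 and Cfb in addition. That is 22.2% of the set, against 9.79% of all probe sets and 29.7% of the bright ones.

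In CT60 to CT65 the genes parted in opposite directions from CT36 to CT41. All 6 late pools lay below all 6 early ones for 8 genes, F2, F7, F12, Serpinc1, Hrg, Masp1, Vtn and Clu, against 4.09% of all probe sets and 13.1% of the bright ones. All lay above for 4 genes, F9, F13b, Mbl1 and C9, against 17.9% and 10.5%. Hrg went from a median of 183617, with a range of 159546 to 199828, to a median of 99573, with a range of 68901 to 146503. Mbl1 went from a median of 47652, with a range of 40979 to 49583, to 66807, with a range of 55929 to 84992. In the same pools the summed level of hepatocyte markers overlapped with that of CT36 to CT41, at 2534350 to 2649410 there, and the summed acute phase list of Saa1, Saa2, Hp, Orm1, Lcn2, Itih4 and Crp lay between 874341 and 1326340, against 918486 to 1066420. Single acute phase genes moved more than this sum, with Saa1 higher in the late pools by 1.25 and Saa2 by 1.28 on the log2 scale and Itih4 at -0.94, and a list median of 0.29. Summed endothelial markers lay between 26640 and 29555 in the late pools, against 25636 to 28722, and Kupffer markers between 55424 and 72506, against 50456 to 64191. The median shift of single markers was -0.52 on the log2 scale for the 6 endothelial genes, against 0.10 for Kupffer, 0.07 for stellate and 0.02 for hepatocyte markers. Their part in these shifts was not tested.

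CT61 alone was the lowest pool of 15 of the 36 genes, against 6.16% of all probe sets and 19.4% of the bright ones. CT54 was the highest pool of 9, F11, Fgb, Fgg, Proc, Pros1, Serpind1, Serpinf2, C8b and Cfi, against 1.51% of all and 2.85% of the bright. Single pools thus set the extremes of many of these genes at once.

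**Figure D4:**
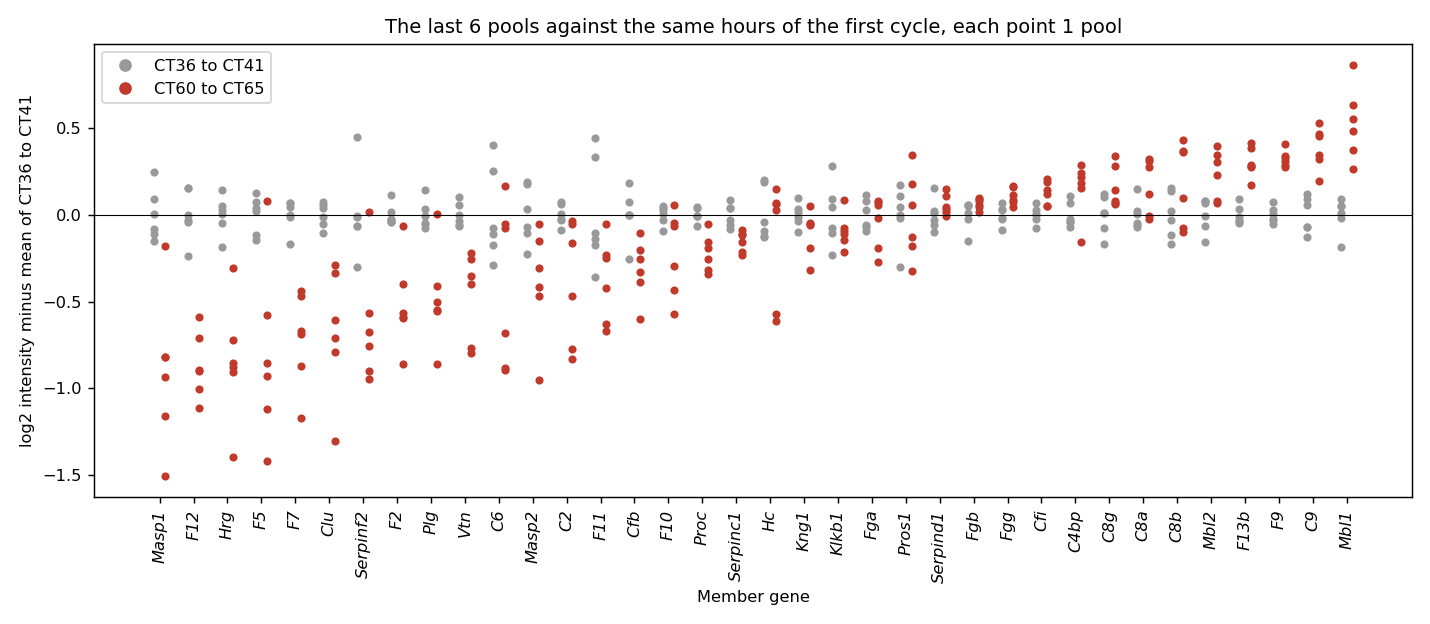
Log2 intensity of each pool minus the gene's mean over CT36 to CT41 (y axis) for the 36 genes (x axis), ordered by the shift, with grey points for CT36 to CT41 and red points for CT60 to CT65. Masp1, F12, Hrg, F5 and F7 lie lowest in the late pools and Mbl1, C9, F9 and F13b highest, while the fibrinogen chains lie near 0.

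Between the whole cycles, matched by hour, 7 genes were higher in the second, F9, F13b, Serpind1, Mbl2, C8b, Cfi and C4bp, against 42.3% of all probe sets and 21% of the bright ones. Lower were 13, F2, F7, F12, Klkb1, Kng1, Proc, Serpinc1, Plg, Serpinf2, C2, Masp1, Masp2 and Vtn, against 11.2% and 25.2%. F12 had the largest fall, at -0.36 ± 0.076 on the log2 scale with adjusted p = 0.000576 by limma. Without CT60 to CT65 the counts were 3 higher, or 8.33%, against 31.3% of all probe sets and 14% of the bright ones, and 5 lower, or 13.9%, against 6.55% and 15.6%. The shape of the rhythm itself differed between the cycles for 10 genes, against 4.63% of all probe sets and 19.5% of the bright ones, and for 0 of 36 without CT60 to CT65, where 0.00443% of all probe sets passed and 3 of the 36, Klkb1, Pros1 and C9, had an unadjusted p under 0.05 by limma. The share of all probe sets at that unadjusted level is not given here. The 10 genes of the test on all pools did not include the fibrinogen chains, Klkb1, F11 or Serpinf2.

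**Figure D5:**
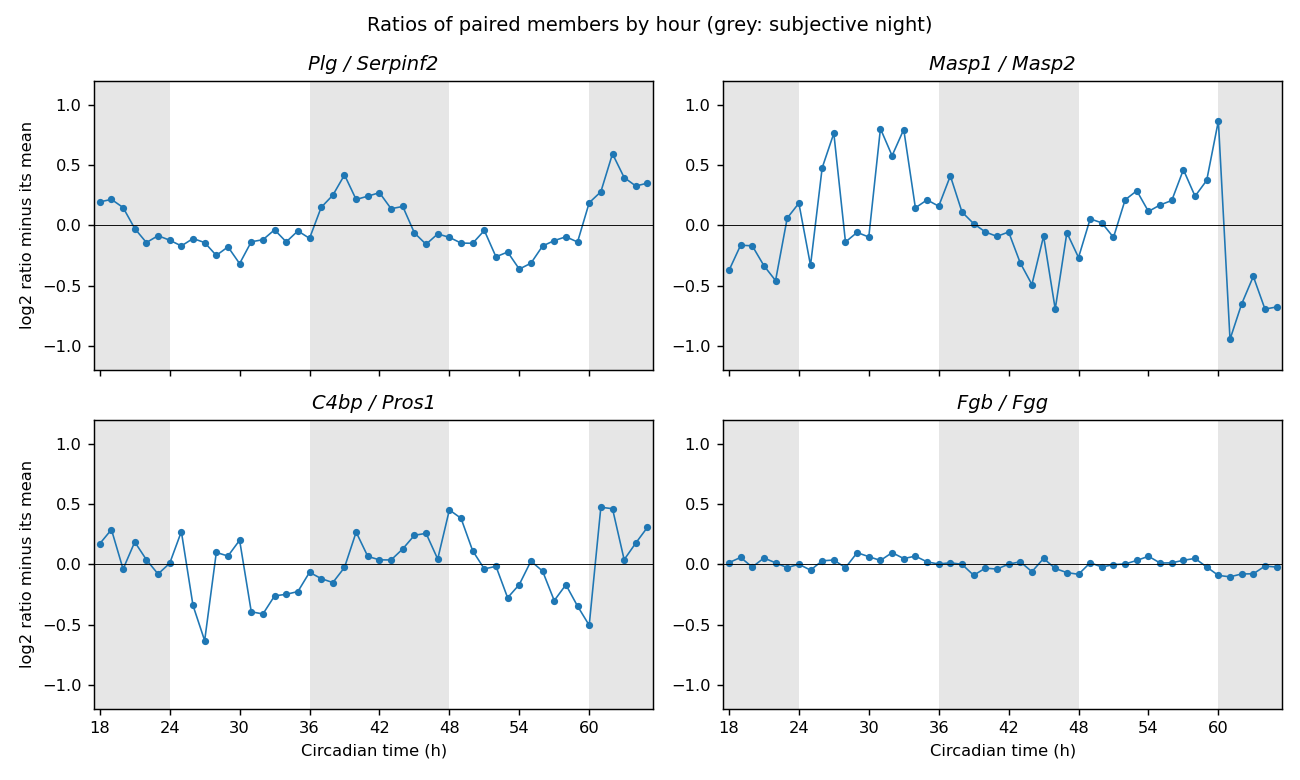
Log2 ratio of 4 pairs of genes minus its mean (y axis, the same range in each panel) against circadian time in hours (x axis), each point 1 pool and grey bands subjective night. Plg over Serpinf2 is high at night, Masp1 over Masp2 is low at CT61 and high at CT60, C4bp over Pros1 is lowest at CT27, and Fgb over Fgg stays between -0.10 and 0.10.

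Of 14 pairs whose ratio was tested, 8 had a 24 h component by limma after adjustment over all probe sets and pairs, and 8 without CT60 to CT65, when C8a to C8b dropped out and F7 to Proc came in with adjusted p = 0.000331. A ratio that cycles shows only that the members of a pair changed unequally.

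Genes of the same systems outside the list were looked up for comparison. Of 16 further measured genes of clotting and fibrinolysis, 1 had a 24 h rhythm by both tests, F3, which encodes tissue factor, the trigger of clotting, with an amplitude of 0.38 ± 0.057 and a peak at CT 9.89 ± 0.54 h. Of 6 genes of vitamin K-dependent carboxylation and secretion, 2 were called, Vkorc1l1, a paralogue of the vitamin K epoxide reductase, with a peak at CT 14.85, and Mcfd2, part of the cargo receptor that exports factors V and VIII, with a peak at CT 21.87. Of 13 other complement genes 1 was called, C1qa, a macrophage product, with a peak at CT 20.06. None of the 7 acute phase genes was called. Of all probe sets 9.97% were called by both tests. By limma's contrast, 2 of the 16 clotting genes were higher and 5 lower by day, 0 and 2 of the 6 vitamin K and secretion genes, 0 and 7 of the 13 complement genes, and 1 and 1 of the acute phase genes. Means were under 200 for 8 of the 16 clotting genes and 2 of the 13 complement genes. These dim genes included Plat, Plaur and Serpina5, all called lower by day, with means of 85.4, 125.7 and 72.8. Over all probe sets 9.14% were higher and 26.3% lower by day. Without CT60 to CT65 these shares were 3.97% and 3.51%. The counts of the outside lists include those pools and are not given without them.

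Of 10 measured regulators known for the transcription of liver secreted genes, 5 had a 24 h rhythm by both tests, against 9.97% of all probe sets. These were Dbp, Arntl, Nr1d1, Cebpb and Tef. Dbp had an amplitude of 3.85 and a peak at CT 10.22, and Arntl 2.62 at CT 22.27. Nr1d1 had 2.09 at CT 6.63, Cebpb 0.60 at CT 11.46 and Tef a peak at CT 11.60. Against these, 35 of the 36 plasma protein genes spanned under 1.5-fold from fitted peak to trough.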

How the data were processed

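RNA from 48 hourly liver pools was measured on Affymetrix arrays, and the deposited values are intensity on a linear scale for 45101 probe sets. By the study's methods the authors extracted them with GCRMA. The submitters' processing notes name MAS5, and which gave the values is not settled. Precision is limited by the number of arrays. Values were log2 transformed. The G-test (23 Fourier frequencies, no detrending) and the cosine fit (after removal of a linear trend, with period lengths from 4 to 30 h, 0.1 h apart, and 1000 scramblings) were run on all probe sets with Storey q-values, classes being 20 to 30, 10 to 14 and 7 to 9 h. Amplitudes, peaks, contrasts and ratios came from limma 3.58.1 in R 4.3.3 with Benjamini-Hochberg adjustment over all probe sets. Its harmonic model fitted cosines of 24, 12 and 8 h beside a linear trend. The fits of single cycles and the test of the rhythm between cycles held no linear trend. Drift within a cycle could thus enter their 24 h component. Residuals of neighboring pools correlated, with a median of 0.163 over the 36 genes, so p-values may be too small. This correlation ran from -0.241 to 0.523 and was highest for Vtn, Clu and Hrg, at 0.523, 0.520 and 0.517. These belong to the 10 genes whose rhythm differed between the cycles, of which C8g was lower, at 0.092. Scripts were tested on simulated data. Python 3.11.15 was used for the rest.

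Every gene of the list is named, with full values for those called by both tests and the 8 largest amplitudes, and the fibrinogen and C8 chains. The genes, roles and lists were chosen with earlier results of these data known. Of 15 planned pairs, the 1 with C3 could not be formed. Promoter sequences are RefSeq's (GRCm38.p6), found for 30 of 39 genes.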

Additional observations from a re-analysis of the deposited data

Results flagged for a closer look

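For 10 genes the 24 h component differed between the cycles by a limma interaction test. Adjusted p was 0.0391 for F2, 0.00292 for F9, 0.0264 for F12, 0.0275 for Serpinc1, 0.00269 for Hrg, 0.0100 for Mbl1, 0.0424 for C8g, 0.00497 for C9, 0.0171 for Vtn and 0.0369 for Clu.

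F2, F12, Hrg, Vtn and Clu had first-cycle amplitudes of 0.05, 0.04, 0.10, 0.04 and 0.03 and second-cycle amplitudes of 0.27, 0.30, 0.35, 0.24 and 0.27, with second-cycle peaks between CT 2.02 and CT 3.32. Mbl1, C9, C8g and F9 changed in peak time, from CT 2.01 to CT 13.86, from CT 2.94 to CT 14.63, from CT 22.12 to CT 14.78 and from CT 21.59 to CT 15.77. Serpinc1 went from an amplitude of 0.04 to 0.10. None of the 36 genes passed this test without CT60 to CT65, with adjusted p of 0.802 for F2 in that fit. These pools correlated less with the other arrays, as given above, and what set them apart was not tested.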

How the results depend on the processing

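The count of 6 genes with a 24 h rhythm by both tests was 6 to 8 under linear values, detrending before the G-test, a Gaussian null and Benjamini-Hochberg adjustment. It was also 6 to 8 under quantile normalization, with 1 probe set per gene and without CT60 to CT65. It was 15 among the brightest probe sets, of which 34.5% were called, against 9.97% of all probe sets in the main test. There the 12 h count was 1 and the 8 h count 2, and the 8 h count was 1 without CT60 to CT65. With all pools, 0 genes had a 12 h and 0 an 8 h rhythm at unadjusted p-values under 0.05 in both tests. These calls among the brightest probe sets with all pools thus rest on a q-value that lay below its p-value in at least 1 test. For these 12 h and 8 h counts the share of probe sets called is not given here. The 23 genes with a 24 h component by limma became 12 with the first cycle alone, which has fewer pools, and 19 to 27 otherwise, with 21 to 27 when any single pool was left out. The 3 with a 12 h component became 5 with no linear trend, 1 after quantile normalization, 0 without CT60 to CT65, 0 with the first cycle alone, 13 with the second cycle alone and 0 to 5 with single pools left out, 5 being without CT38. The 24 h call of 9 genes changed with at least 1 single pool left out: F13b, Pros1, Cfb and C8b lost it, and F10, F12, Serpind1, Mbl2 and C6 gained it. The 20 genes whose level differed between cycles became 8, and the 10 whose rhythm differed became 0, without CT60 to CT65. The day minus night value of F7, 0.02, turned to -0.13 without them. The cause was not tested. Counts for day against night were 10 to 17 and for pairs 8 throughout. All alternatives were set together with the main tests.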
